A study of Mus musculus with 6 samples.

Results

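The genes described here encode fibroblast growth factors (FGFs), the receptors that bind them and an inhibitor of the pathway that they switch on. They are 10 genes found by symbol among the 20856 genes with values in the deposited expression table: the receptors *Fgfr1*, *Fgfr2*, *Fgfr3* and *Fgfr4*, the ligands *Fgf1*, *Fgf2*, *Fgf7*, *Fgf18* and *Fgf21*, and *Spry2*. FGF ligands are secreted proteins that bind receptor tyrosine kinases together with heparan sulfate chains at the cell surface, and the activated receptors signal through the adaptor FRS2 to RAS and the MAP kinase ERK. Sprouty proteins such as SPRY2 are made in response to ERK and dampen the signal. In the liver the pathway is known for the control of bile acids and metabolism through FGFR4 and for the growth of stroma and of tumors.

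RNA was sequenced from 6 cell lines grown out of liver tumors of C57BL/6 mice. All of the tumors had been started in vivo by hydrodynamic transfection of a *Myc* transposon with a px330 plasmid that carries Cas9 and a single guide RNA. The guide was directed at *Trp53* (labelled sgp53) in 3 lines, *Myc*; sg*Trp53*, and at *Kmt2c* (labelled sgMll3), which encodes the histone methyltransferase MLL3, in the other 3, *Myc*; sg*Kmt2c*. Both genotypes thus share the *Myc* transgene and Cas9, neither has both targeted genes intact, and no untreated or normal liver sample entered the comparison. The cells were grown on collagen in serum and passaged until no fibroblasts were seen. The labels name sg*Kmt2c* lines 2 and 3 as 2A and 2T1, while the study's methods say that the lines came from different mice, so each line was counted as 1 replicate.

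Values are RPKM, the reads on a gene per kilobase of a listed transcript, scaled by library depth, and multiplying by the length gave back whole reads. The libraries held 3680068 to 6878625 reads on genes, and every sg*Kmt2c* library was shallower than every sg*Trp53* library. *Trp53* mRNA lay at 17.2 to 19.4 RPKM in sg*Trp53* lines and 92.2 to 124 RPKM in sg*Kmt2c* lines, while *Kmt2c* mRNA overlapped (18.4 to 24.2 and 9.51 to 25.0 RPKM). The library of sg*Kmt2c* line 1 stood apart: its correlation with the other libraries across genes was 0.759 to 0.836, against 0.881 to 0.951 between the others. Across the 11617 genes with at least 1 RPKM in at least 3 libraries, it was the highest library for 23.6% and the lowest for 35.9%. It also held the most hepatocyte marker RNA (summed RPKM of 5633, against 2.35 to 334 in the others), nearly all from *Apob* and *Hnf4a* (4385 and 1186 RPKM). The other hepatocyte markers with values were also highest in this library, except *Fgb* (20.1 RPKM, against 32.5 in sg*Kmt2c* line 3) and *Cyp2e1* (0 reads). Its fibroblast and stellate cell marker RNA was the least (0.282, against 18.7 to 996), with 8 of the 10 markers at 0 reads. *Alb*, the defining product of mature hepatocytes, was low in all lines (0.644 to 4.36 RPKM). Fold changes of the members are given with and without this line where it moves them.

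Of the 10 genes, *Fgfr3*, *Fgfr4* and *Fgf18* were lower in every sg*Kmt2c* line than in any sg*Trp53* line, and no gene was higher in every one. Among the 19183 genes with a read in any library, 8.84% were separated in that direction, 4.32% in the opposite one and 13.2% in either. The RefSeq promoters of these 3 genes are shown because they are the ones whose lines did not overlap. Each is a window of 300 bases, most of it upstream of an annotated start on GRCm38.p6, written 5′ to 3′ on the strand of the gene, with GC boxes (GGGCGG or CCGCCC, the same motif on either strand, overlapping matches included) in capitals. *Fgfr3* has an entry for each of its 2 starts, at chr5:33721474-33721773 and chr5:33722056-33722355 on the plus strand. *Fgfr4* lies at chr13:55152568-55152867 on the plus strand and *Fgf18* at chr11:33147351-33147650 on the minus strand.
Fgfr3 first start: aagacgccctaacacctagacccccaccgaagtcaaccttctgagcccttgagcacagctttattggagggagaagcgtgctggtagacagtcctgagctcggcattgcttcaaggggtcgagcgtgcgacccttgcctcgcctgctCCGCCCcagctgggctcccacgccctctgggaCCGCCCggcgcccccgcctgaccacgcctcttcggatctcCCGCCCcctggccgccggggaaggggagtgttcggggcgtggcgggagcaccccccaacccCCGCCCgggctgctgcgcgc
Fgfr3 second start: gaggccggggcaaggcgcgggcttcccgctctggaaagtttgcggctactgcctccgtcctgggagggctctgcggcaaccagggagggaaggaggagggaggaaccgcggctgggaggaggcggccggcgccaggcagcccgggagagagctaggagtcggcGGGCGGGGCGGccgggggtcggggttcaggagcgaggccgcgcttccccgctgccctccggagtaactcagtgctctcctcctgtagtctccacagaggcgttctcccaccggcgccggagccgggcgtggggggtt
Fgfr4: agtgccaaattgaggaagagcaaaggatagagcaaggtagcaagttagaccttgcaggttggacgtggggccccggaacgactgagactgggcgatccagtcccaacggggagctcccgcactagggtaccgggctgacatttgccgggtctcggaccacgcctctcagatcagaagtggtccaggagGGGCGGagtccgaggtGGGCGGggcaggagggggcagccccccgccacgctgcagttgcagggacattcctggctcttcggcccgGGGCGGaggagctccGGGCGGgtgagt
Fgf18: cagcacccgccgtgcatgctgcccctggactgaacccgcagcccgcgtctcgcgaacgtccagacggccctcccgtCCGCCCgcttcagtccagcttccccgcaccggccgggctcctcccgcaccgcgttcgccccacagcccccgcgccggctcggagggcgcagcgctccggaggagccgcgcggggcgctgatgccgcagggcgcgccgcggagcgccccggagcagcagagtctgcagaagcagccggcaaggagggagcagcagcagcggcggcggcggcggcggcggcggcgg

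These 4 windows were rich in G and C. The *Fgf18* window was 78.7% GC with 47 CpG, the *Fgfr3* windows 69.7% and 73.0% with 26 and 30 CpG, and the *Fgfr4* window 65.3% with 20 CpG, against medians of 52.7% and 7 CpG over 32851 promoters of the same length. They held 4 and 2 GC boxes (*Fgfr3*), 4 (*Fgfr4*) and 1 (*Fgf18*), and 35.7% of all promoters held at least 1. None held the E-box CACGTG, the motif that MYC with MAX binds (in 7.15% of promoters), or the TATA box TATAAA (or TTTATA on the other strand, in 13.6%). Of the other members in the promoter table, *Fgf21* and *Fgfr2* held 1 E-box each and *Fgf2* 1 and *Fgf21* 3 GC boxes, while *Fgf7* and *Spry2* held neither. The members whose lines overlapped spanned a wide range, with windows of 43.7% GC and 4 CpG (*Fgfr2*), 45.7% and 11 (*Fgf7*), 58.0% and 9 (*Fgf21*), 62.7% and 24 (*Fgf2*) and 62.7% and 28 (*Spry2*), so high GC or CpG content was not limited to the separated genes. A match of letters is a description and not a site of binding.

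The first question was whether the receptors differed between the genotypes. *Fgfr3* encodes a receptor that restrains bone growth and is mutated in bladder cancer. It lies on chromosome 5 of GRCm38 from 33721724 to 33737068. In the sg*Trp53* lines it lay at 4.74, 3.88 and 12.6 RPKM (lines 1, 2 and 3), from 122, 87 and 367 reads, and in sg*Kmt2c* lines at 0.755, 0.579 and 1.61 RPKM, from 15, 9 and 29 reads. The means were 7.08 ± 4.82 and 0.981 ± 0.551 RPKM (SD, n = 3 lines each). Every sg*Kmt2c* line was thus under the lowest sg*Trp53* line, and sg*Trp53* line 3 was the highest. The log2 fold change, sg*Kmt2c* relative to sg*Trp53*, was -1.91 on the log2(RPKM + 1) scale (standard error 0.459, 95% interval -3.01 to -0.81). This is 3.75-fold lower in RPKM + 1, a scale that understates changes of low genes, and the mean RPKM values lie further apart. The difference did not pass the test across all 11617 genes (adjusted p = 0.375, unadjusted p = 0.00478, limma). An unadjusted p under 0.05 was reached by 8.58% of those genes and an adjusted one by 0.129%, and the *Fgfr3* p was number 148 from the smallest. Leaving out any 1 line gave values between -2.19 and -1.45 and no overlap of the genotypes (without sg*Kmt2c* line 1 it was -1.84). The exact permutation test gave a two-sided p of 0.1, the smallest that 3 lines against 3 allow, for *Fgfr3* and likewise for *Fgfr4* and *Fgf18*. *Fgfr3* passed the filter on low values through all 3 sg*Trp53* libraries and sg*Kmt2c* line 3.

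*Fgfr4*, the main FGF receptor of hepatocytes and the one for the gut hormone FGF15, lies on chromosome 13 from 55152640 to 55168759. It was near the limit of detection at 1.23, 0.113 and 0.742 RPKM in sg*Trp53* lines (25, 2 and 17 reads) and 0, 0 and 0.0704 RPKM in sg*Kmt2c* lines (0, 0 and 1 read). The lines did not overlap, but sg*Trp53* line 2 and sg*Kmt2c* line 3 were 1 read apart and the gene was too low to enter the test across genes. Pooled over lines, 44 reads stood against 1, a depth-adjusted ratio of 30.5 with a 95% exact interval of 5.19 to 1230 that covers counting error only. In sg*Kmt2c* line 1, with its high hepatocyte marker RNA, *Fgfr4* had 0 reads.

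*Fgfr1*, the widely expressed receptor of mesenchymal cells, lies on chromosome 8 from 25513654 to 25575714. It stood at 35.1, 36.5 and 69.8 RPKM in sg*Trp53* lines and 5.15, 77.2 and 53.7 RPKM in sg*Kmt2c* lines (47.2 ± 19.7 and 45.4 ± 36.8, SD, n = 3 each). The genotypes overlapped, with sg*Kmt2c* line 1 the lowest and line 2 the highest of all. The log2 fold change was -0.62 (95% interval -2.86 to 1.61, adjusted p = 0.842, limma) and turned to 0.52 without sg*Kmt2c* line 1. The interval leaves room for more than 2-fold either way.

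*Fgfr2*, whose epithelial splice form is the receptor of FGF7, lies on chromosome 7 and varied most among the receptors. In the sg*Trp53* lines it lay at 1.69, 10.0 and 18.9 RPKM (25, 129 and 316 reads), an 11.2-fold spread, and in sg*Kmt2c* lines at 0.525, 36.7 and 53.3 RPKM (6, 328 and 552 reads), a 101-fold spread. Line 1 was the lowest of each genotype, and sg*Kmt2c* lines 2 and 3 were above every sg*Trp53* line. The log2 fold change was 0.80 (standard error 1.45, 95% interval -2.65 to 4.26, adjusted p = 0.869, limma). Without sg*Kmt2c* line 1 it was 2.43 and the lines no longer overlapped, with an unadjusted p of 0.0245 and an adjusted p of 0.471 (limma). The lines in which *Fgfr2* was lowest, line 1 of each genotype, were also those with the lowest fibroblast and stellate cell marker sums (18.7 and 0.282 RPKM, against 121 to 996 in the other 4), whose part in the result was not tested. The deposited table gives *Fgfr2* a span from 130162451 to 133123350, or 2961 kb across 34 other listed genes, while the RefSeq gene ends at 130266808. Whether reads of those genes were counted on *Fgfr2* was not tested.

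**Figure D1:**
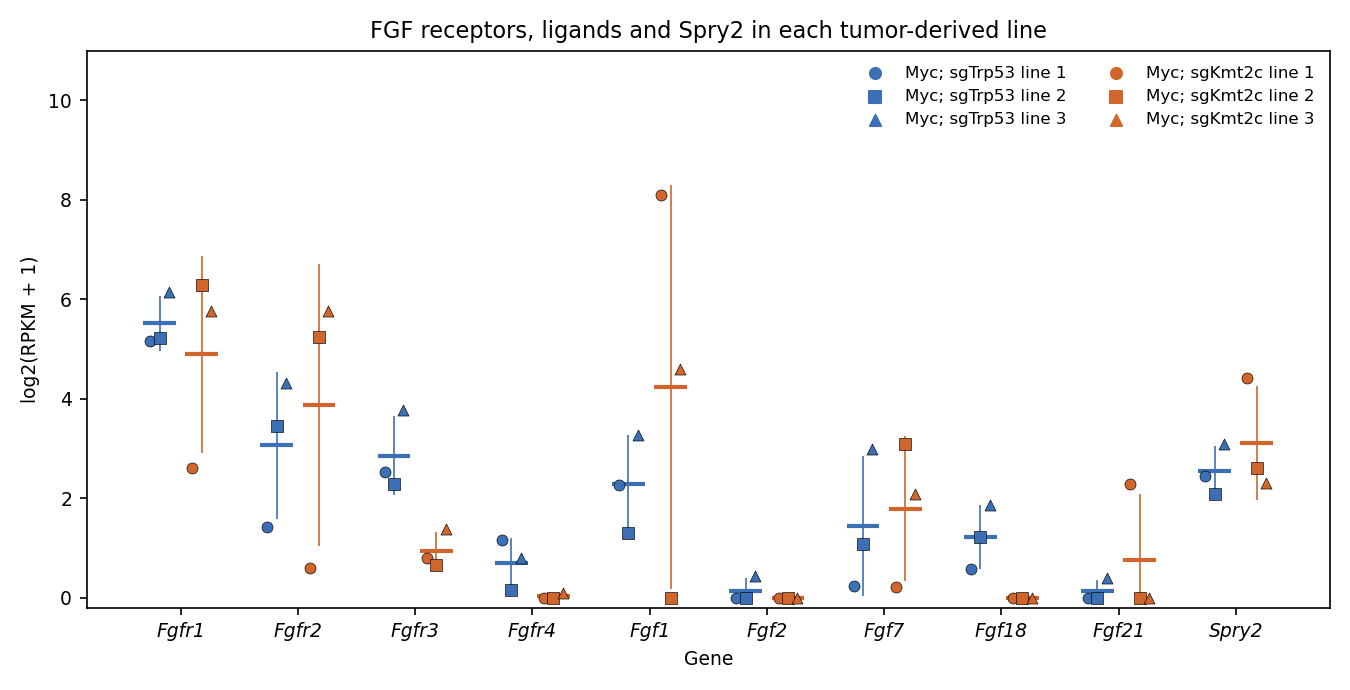
Expression of the 10 genes in each line, as log2(RPKM + 1) on the vertical axis with the genes along the horizontal axis. Points are the 6 lines (blue sg*Trp53*, orange sg*Kmt2c*, shape by line number), bars the mean and thin lines the SD of 3 lines. The orange points of *Fgfr3*, *Fgfr4* and *Fgf18* all lie under the blue ones, and sg*Kmt2c* line 1 (orange circles) is the lowest for *Fgfr1* and *Fgfr2* and the highest for *Fgf1*, *Fgf21* and *Spry2*.

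**Figure D2:**
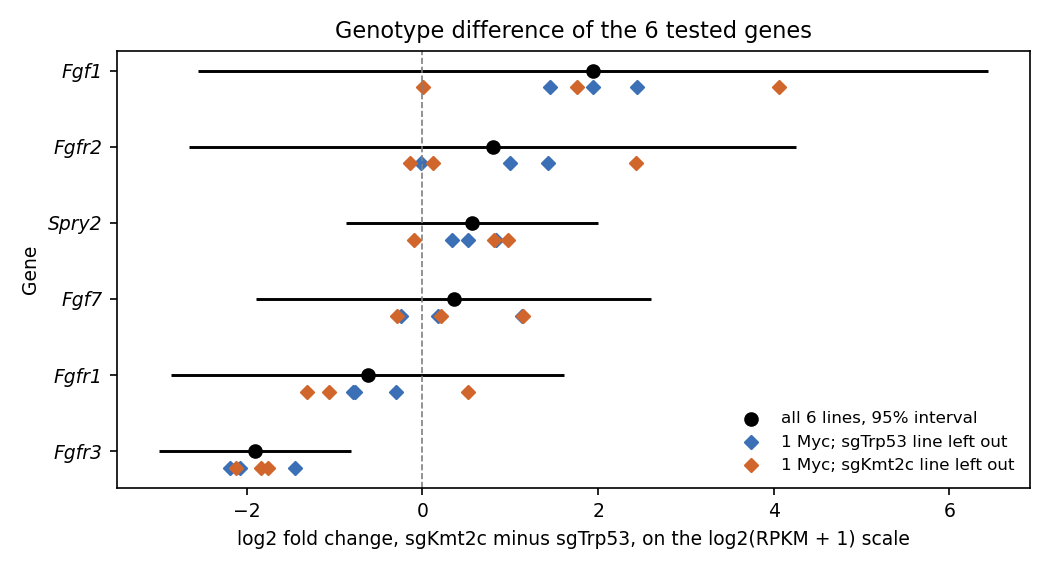
Log2 fold change (sg*Kmt2c* minus sg*Trp53*, on the log2(RPKM + 1) scale, horizontal axis) of the 6 genes that passed the filter on low values. Black points and lines are the value from all 6 lines with its 95% interval, and diamonds the values with 1 line left out. Only the *Fgfr3* interval (-3.01 to -0.81) lies on 1 side of 0, and the diamonds of *Fgfr1*, *Fgfr2*, *Fgf7* and *Spry2* fall on both sides.

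The receptors were next compared with each other within each line, which does not depend on depth. In deposited RPKM, *Fgfr1* made up 82.1, 72.3 and 68.4% of the summed receptor RPKM in sg*Trp53* lines and 80.1, 67.5 and 49.4% in sg*Kmt2c* lines. The listed transcript of *Fgfr1* is short (453 bases, where the union of its annotated exons spans 8061), which raises its RPKM relative to the other receptors. On reads per kilobase of exon union, a scale chosen after seeing the data, *Fgfr1* was 21.5 to 30.1% in sg*Trp53* lines and 14.6 to 31.6% in sg*Kmt2c* lines. On that scale *Fgfr3* was the largest receptor in sg*Trp53* lines 1 and 3 (44.3 and 42.4%) and *Fgfr2* in line 2 (40.7%, with *Fgfr3* at 31.1%). In sg*Kmt2c* lines 2 and 3 *Fgfr2* made up 70.8 and 80.3% and *Fgfr3* 2.20 and 4.78%. In sg*Kmt2c* line 1 *Fgfr3* was the largest at 50.5% and *Fgfr2* was 17.8%, so on that scale its *Fgfr3* share was above that of every sg*Trp53* line. In deposited RPKM its *Fgfr3* share was 11.7%, under that of sg*Trp53* line 3 (12.4%).

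The read counts set the precision of these shares. *Fgfr2* took 328 of 466 receptor reads in sg*Kmt2c* line 2 (70.4%, exact binomial 95% interval 66.0 to 74.5%) and 552 of 686 in line 3 (80.5%, 77.3 to 83.4%), against at most 42.2% (36.6 to 47.9%) in any sg*Trp53* line. In sg*Kmt2c* line 1 only 32 reads fell on the receptors, of which 15 were on *Fgfr3* (46.9%, 29.1 to 65.3%). The intervals cover counting error only. The summed receptor RPKM was 42.8, 50.5 and 102 and then 6.43, 115 and 109 in sg*Kmt2c* lines (two-sided exact permutation p = 0.8). Between genotypes, the *Fgfr2* share of deposited RPKM differed by 15.65 percentage points (exact permutation test, two-sided p = 0.3), that of *Fgfr3* by -5.80 (p = 0.3), that of *Fgfr1* by -8.59 (p = 0.4) and that of *Fgfr4* by -1.26 (p = 0.1, the smallest possible). Without sg*Kmt2c* line 1 the differences were 26.4 points for *Fgfr2*, -9.38 for *Fgfr3*, -15.8 for *Fgfr1* and -1.25 for *Fgfr4*. Without sg*Kmt2c* line 3 those of *Fgfr2* and *Fgfr1* were 6.01 and -0.48, that of *Fgfr3* was -3.77 without line 2, and that of *Fgfr4* was -0.45 without sg*Trp53* line 1. None of these 4 shares can pass 0.05 in a comparison of 3 lines with 3.

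**Figure D3:**
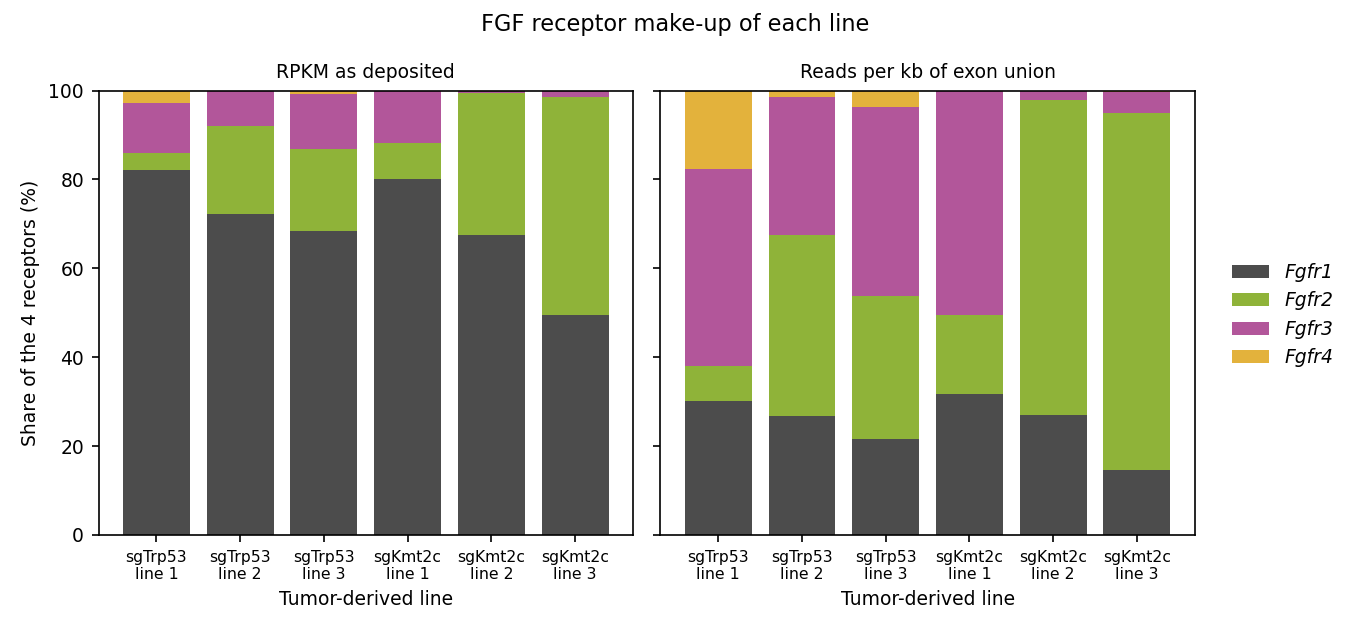
Share of each of the 4 receptors in their sum (vertical axis, percent) in each of the 6 lines, from RPKM as deposited (left) and from reads per kilobase of exon union (right). The *Fgfr2* share (green) is largest in sg*Kmt2c* lines 2 and 3 in both panels (32.0 and 49.0%, left), and sg*Kmt2c* line 1 keeps a *Fgfr3* share (magenta) of 11.7% on the left and 50.5% on the right.

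Among the ligands, *Fgf18*, which acts on cartilage, bone and lung through FGFR3 and related receptors, lies on chromosome 11 from 33117430 to 33147400. It had 3, 7 and 18 reads in sg*Trp53* lines (0.496, 1.33 and 2.64 RPKM) and 0 reads in each sg*Kmt2c* line. At 28 reads against 0 it was at least 6.46-fold lower, with a floor of 3 counts over the 3 sg*Kmt2c* libraries together. A floor of 3 reads in a single library corresponded to 0.643, 0.823 and 0.709 RPKM in sg*Kmt2c* lines, which is above the value of sg*Trp53* line 1, so for that line a difference was not detectable at this depth. *Fgf18* was too low for the test across genes.

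*Fgf1*, a ligand that binds all FGF receptors, lies on chromosome 18 and was set apart by a single line. It lay at 3.84, 1.47 and 8.69 RPKM in sg*Trp53* lines (9, 3 and 23 reads), and 273, 0 and 23.1 RPKM in sg*Kmt2c* lines (494, 0 and 38 reads). The sg*Kmt2c* lines thus held both the lowest and the highest values. The log2 fold change was 1.95 (standard error 1.88, 95% interval -2.55 to 6.44, adjusted p = 0.764, limma). Without sg*Kmt2c* line 1 it was 0.01, and without line 2 it was 4.06 with every remaining sg*Kmt2c* line above the sg*Trp53* lines (unadjusted p = 0.0115, adjusted p = 0.483, limma). Its span overlaps *Arhgap26*, which had 61, 5 and 12 reads in sg*Kmt2c* lines and 22, 29 and 43 in sg*Trp53* lines. Its listed length of 384 bases, against an exon union of 4648, raises its RPKM, and on the exon-union scale line 1 had a depth-scaled level of 22.6.

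*Fgf7*, the keratinocyte growth factor that stromal cells make for epithelia, lies on chromosome 2 from 126034658 to 126091185. It stood at 0.184, 1.13 and 6.95 RPKM in sg*Trp53* lines, and 0.159, 7.51 and 3.24 RPKM in sg*Kmt2c* lines, a spread of 37.8-fold and 47.3-fold within the genotypes. The log2 fold change was 0.35 (95% interval -1.89 to 2.60, adjusted p = 0.914, limma), and 1.15 without sg*Kmt2c* line 1. Its span overlaps *Fam227b*, which had at most 4 reads in a line. Line 1 of each genotype, with the least fibroblast marker RNA, was also lowest for *Fgf7*. In bulk RNA, fewer cells of a type and less RNA per cell cannot be told apart, and the part of the marker RNA in this result was not tested.

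*Fgf2*, the ligand most used to keep cells proliferating in culture, lies on chromosome 3 from 37348346 to 37410108 and had 3 reads in sg*Trp53* line 3 (0.351 RPKM) and 0 in the other 5 lines. *Fgf21*, a hormone that hepatocytes secrete under metabolic stress, lies on chromosome 7 from 45613907 to 45615490. It had 17 reads in sg*Kmt2c* line 1 (3.88 RPKM), 2 in sg*Trp53* line 3 (0.312 RPKM) and 0 in the other 4. Both were detected in too few lines to compare the genotypes (p = 1.0 for both, two-sided exact permutation test). The span of *Fgf2* overlaps *Nudt6* and *Fgf2os*, and the counting's use of strand is not given in the sources used here.

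*Spry2*, the feedback inhibitor, lies on chromosome 14 from 105891949 to 105896819. Its values were 4.48, 3.25 and 7.52 RPKM in sg*Trp53* lines and 20.5, 5.07 and 3.93 RPKM in sg*Kmt2c* lines (5.08 ± 2.20 and 9.82 ± 9.23, SD, n = 3 each). Line 1 of sg*Kmt2c* was the highest and the other 2 lay within the range of the sg*Trp53* lines. The log2 fold change was 0.57 (95% interval -0.87 to 2.00, adjusted p = 0.779, limma) and -0.092 without that line.

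On 1 length scale, reads per kilobase of exon union with the same depth scaling as RPKM, the levels in sg*Trp53* lines ran from *Spry2* (5.09 ± 2.20, SD, n = 3) over *Fgfr3* (4.35 ± 2.96), *Fgfr2* (3.18 ± 2.68), *Fgfr1* (2.65 ± 1.11), *Fgf7* (2.27 ± 3.02) and *Fgf18* (1.24 ± 0.902) to *Fgfr4* (0.652 ± 0.526). *Fgf1* (0.386 ± 0.305), *Fgf21* (0.104 ± 0.181) and *Fgf2* (0.0807 ± 0.140) were lowest. No gap between neighbours in this order exceeded the larger of their SDs. In the sg*Kmt2c* lines *Spry2* (9.84 ± 9.25), *Fgfr2* (9.40 ± 8.40) and *Fgf1* (8.17 ± 12.5) led and *Fgfr3* was at 0.602 ± 0.338, again with SDs that exceed the gaps between neighbours at the top. Without sg*Kmt2c* line 1, the *Fgfr2* level rested on 11.4 and 16.6 that of *Spry2* on 5.08 and 3.93, and that of *Fgf1* on 0 and 1.92.

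No gene of the pathway outside these 10 passed an adjusted p under 0.05 (limma). Of 82 genes listed for the pathway, 74 were in the table and 57 could be tested, of which 5 had an unadjusted p under 0.05 and were lower and 2 were higher, beside 5.34% and 3.25% of all genes. The sg*Kmt2c* lines were under every sg*Trp53* line for 8 of the 57 and above for 2, against 10.4% and 5.72% of all tested genes (16.2% in either direction). The median log2 fold change of the 57 was 0.12, where that of all genes was -0.09, and that of the 6 tested members was 0.46.

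Among the carriers of heparan sulfate, *Sdc1* (syndecan-1, a coreceptor of epithelial cells) lay at 341, 423 and 559 RPKM in sg*Trp53* lines and 1692, 1361 and 958 RPKM in sg*Kmt2c* lines. Its RPKM rests on a listed transcript of 342 bases, and whether that length matches the counted exons was not tested. Every sg*Kmt2c* line was above every sg*Trp53* line, with a log2 fold change of 1.59 (standard error 0.294) that did not pass the test (adjusted p = 0.215, unadjusted p = 0.00119, limma). Over all tested genes, 5.72% were separated in that direction. Of the 10 genes tested in this list, 6 had a positive and 4 a negative fold change, with a median of 0.47. Without sg*Kmt2c* line 1 the counts were 7 and 3 and the median 0.63. *Fgfbp1*, which releases FGFs from the matrix, was 46.1 RPKM in sg*Kmt2c* line 1 and 1.47 to 6.85 RPKM in the other 5 lines (log2 fold change 1.68, and 0.66 without line 1). *Klb*, the coreceptor through which FGF21 and FGF15 act, was at most 0.331 RPKM in any line, and so too low to test.

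In heparan sulfate synthesis and editing, *Sulf2*, a sulfatase that trims the chains, lay at 2.54, 26.9 and 7.23 RPKM and at 32.4, 58.2 and 42.2 RPKM (log2 fold change 2.24, adjusted p = 0.489, limma). *Ndst1*, which starts their sulfation, lay at 44.2, 56.8 and 52.7 RPKM and at 23.4, 26.6 and 37.4 RPKM (log2 fold change -0.81, adjusted p = 0.431, limma). Neither overlapped between genotypes, *Sulf2* being higher and *Ndst1* lower in sg*Kmt2c* lines. *Hs6st2*, which adds a sulfate that FGF binding uses, varied from 0 to 11.7 RPKM and overlapped. Of the 10 genes of this list 7 had a negative fold change, with a median of -0.54, beside 58.0% negative among all genes tested, and without sg*Kmt2c* line 1 the count was 6 and the median -0.18.

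In the adaptors and the RAS-MAPK relay 18 of 18 genes could be tested, and 6 were under every sg*Trp53* line in all sg*Kmt2c* lines. *Nras* lay at 44.1, 54.7 and 51.7 RPKM against 27.7, 25.2 and 28.5 RPKM (log2 fold change -0.86, adjusted p = 0.286, limma). *Plcg1*, the phospholipase that the receptors bind directly, lay at 34.6, 41.6 and 40.9 RPKM against 19.9, 22.6 and 28.4 RPKM (log2 fold change -0.71, adjusted p = 0.439, limma). The docking protein *Gab1* lay at 11.3, 8.94 and 8.87 RPKM against 6.25, 5.75 and 6.69 RPKM (log2 fold change -0.56, adjusted p = 0.569, limma). The adaptor *Grb2* and the phosphatase *Ptpn11* were also among the 6, with log2 fold changes of -0.40 and -0.41. The list's median was 0.12, with 10 genes positive and 8 negative, and -0.038 with 7 and 11 without sg*Kmt2c* line 1. *Frs2*, the adaptor that FGF receptors use, was at -0.12.

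Among the feedback inhibitors and the genes that ERK induces, sg*Kmt2c* line 1 was often the highest. Of the 9 ERK-induced genes tested, 8 had a positive fold change (median 0.58), beside 42.0% positive among all genes, and that line was the highest library for 6 of them. *Myc* is among these 8 (log2 fold change 0.25), and all lines also carry the *Myc* transposon. The part of its RNA that came from the transposon was not tested. Without sg*Kmt2c* line 1, 6 of the 9 were positive, with a median of 0.20, beside 45.6% of all genes. Together with *Spry2* and the 9 tested feedback inhibitors, sg*Kmt2c* line 1 was the highest for 11 of 19 (57.9%), where over all genes it was the highest for 23.6%. That line was the lowest for 3 of the 19 (15.8%), beside 35.9% over all genes. *Egr1*, the 1 ERK-induced gene with a negative fold change (-0.71), was lowest there, at 5.77 RPKM against 14.6 to 25.4 RPKM in the others. Its fold change was -0.21 without that line. *Dusp6*, an ERK phosphatase, lay at 141 RPKM in that line, against 7.62 to 26.6 RPKM in the others (log2 fold change 1.47, adjusted p = 0.682, limma, and 0.47 without that line). *Phlda1* lay at 115 RPKM there and at 6.90 to 21.5 RPKM elsewhere, and *Fos* at 20.5 against 2.75 to 4.88 RPKM (0.82 and 0.20 on the log2 scale without that line, from 1.64 and 0.87). *Il17rd* (Sef), an inhibitor of FGF signalling at the membrane, was the feedback gene whose lines did not overlap, at 1.74, 1.01 and 2.79 RPKM against 0.0775, 0.462 and 0.683 RPKM (log2 fold change -0.99, adjusted p = 0.548, limma). *Il17rd* passed the filter on low values only through the sg*Trp53* libraries, which favors a lower value in sg*Kmt2c* lines. Over all tested genes, 10.4% were separated in that direction. *Spry1* varied from 0.332 to 17.2 RPKM and overlapped. *Fgf13*, which is not secreted, was the only ligand outside the members that could be tested, at 26.7, 0.326 and 16.0 RPKM in sg*Kmt2c* lines and 1.84 to 5.69 RPKM in sg*Trp53* lines (log2 fold change 1.10, and 0.25 without sg*Kmt2c* line 1).

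**Figure D4:**
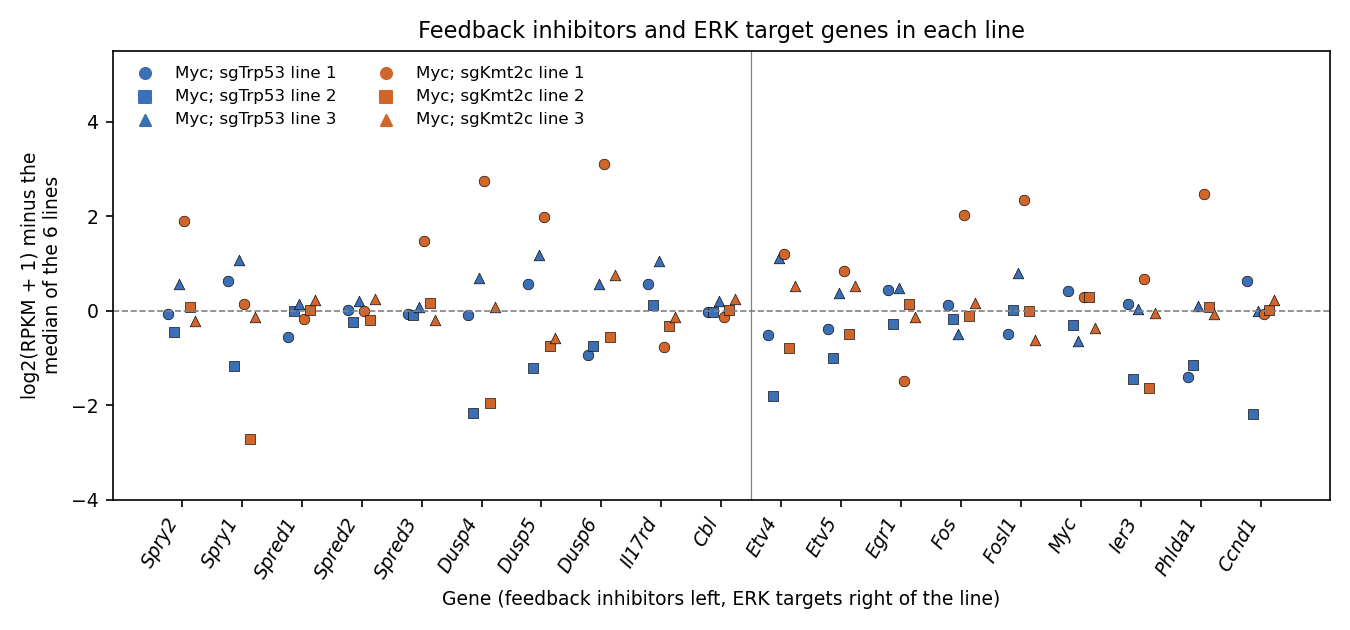
Each line's log2(RPKM + 1) minus the median of the 6 lines (vertical axis) for *Spry2* and the tested feedback inhibitors (left of the line) and ERK-induced genes (right). Colors and shapes mark the lines as in the plot of the 10 genes. The orange circle of sg*Kmt2c* line 1 is the highest point for 11 of the 19 genes, among them *Dusp6*, *Fos* and *Phlda1*.

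Markers of other cell types also differed between lines. The immune marker sum was 47.1, 21.9 and 58.7 RPKM in sg*Trp53* lines and 6.28, 5.51 and 15.4 RPKM in sg*Kmt2c* lines, in the same direction as *Fgfr3*, *Fgfr4* and *Fgf18*. *Lyz2* gave most of it in sg*Trp53* lines and *Cd68* in sg*Kmt2c* lines 1 and 2, and *Csf1r*, a macrophage receptor, did not overlap (10.0, 1.70 and 8.33 RPKM against 0.932, 0 and 0.967, log2 fold change -2.06, unadjusted p = 0.0122, adjusted p = 0.440, limma). *Csf1r* passed the filter on low values only through the sg*Trp53* libraries, which favors a lower value in sg*Kmt2c* lines. Over all tested genes, 10.4% were separated in that direction. Of the 3 immune markers that could be tested, *Lyz2* did not overlap either, while *Cd68* did. *Cd68* lay at 7.60, 2.60 and 4.01 RPKM in sg*Trp53* lines and 5.35, 5.29 and 1.71 RPKM in sg*Kmt2c* lines (log2 fold change -0.17). *Ptprc*, the common leukocyte antigen, was at most 0.0655 RPKM. The T cell marker *Cd3e* was at 0 reads in all 6 lines. Cholangiocyte and progenitor markers summed to 1025, 111 and 1118 RPKM and to 3522, 116 and 470 RPKM. The endothelial sum was 17.3 to 44.5 and 43.7 to 53.3 RPKM, nearly all from *Egfl7*, with *Emcn* at 0 in every line. No marker passed an adjusted p under 0.05 (limma), and the part of these markers, or of the shallower sg*Kmt2c* libraries, in the differences of *Fgfr3*, *Fgfr4* and *Fgf18* was not tested.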

How the data were processed

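RNA-seq of 3 *Myc*; sg*Trp53* and 3 *Myc*; sg*Kmt2c* lines was analysed. Reads were trimmed with Trimmomatic, aligned to GRCm38 with STAR and counted with HTSeq by the authors, who deposited RPKM per gene; 209 of 21065 rows hold no values and 6 columns of other samples were not used. The authors' deposited DESeq2 1.8.2 comparison table (per-gene mean signal, log2 fold change with its error, Wald score and p-value) was not used. RPKM times length gave whole reads for 100% of values (tolerance 0.01 reads). A read at 2 kb was worth 0.0727 to 0.136 RPKM. The deposited sample sheets place all libraries on 1 flow cell, in the same 2 lanes.

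Genes with RPKM of at least 1 in at least 3 libraries were tested with limma 3.58.1 in R 4.3.3 (lmFit, eBayes with trend) on log2(RPKM + 1), in a genotype-only model, and p-values were adjusted by Benjamini-Hochberg across them. The scale understates changes of low genes. Single genes and receptor shares had two-sided exact permutation tests (scipy 1.17.1). The script was tested on simulated data. Exon unions came from GENCODE M1 gene models and promoters from a table of RefSeq starts, in which 8 of the 10 members were matched. No genome of the files' build was used. Alternatives changed the pseudocount (0.1, 0.5), filter, scaling, moderation, model (limma voom on the recovered reads), replicate block and lines.

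The members and lists were chosen with earlier results of these data known. Named in the text are all members, pathway genes with an unadjusted p under 0.05, the 2 largest fold changes per list, targeted genes and leading markers. *Grb2*, *Ptpn11*, *Frs2*, *Klb*, *Egr1*, *Myc* as an ERK-induced gene, the markers at 0, genes overlapping a member and *Alb* were added after values were seen. The numbers 1 to 3 name lines and are not stated to pair them. The intervals of read shares and of the pooled read ratio, and the floors, cover counting error only. The limma intervals and p-values set a difference against the spread between these lines.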

Additional observations from a re-analysis of the deposited data

How the results depend on the processing

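No member passed an adjusted p under 0.05 (limma) in the reported fit or in any of 16 alternatives. In these, 1 or 2 of 6 tested members had an unadjusted p under 0.05, beside 563 to 1477 of 11617 genes. Without the filter on low values it was 3 of 10, beside 1405 of 19183 genes. The other pathway genes gave 0 in all 16 as well, with a smallest adjusted p of 0.183 (limma). Of 57 tested, 5 to 13 had an unadjusted p under 0.05 (8 of 72 without the filter). The 13 came without sg*Kmt2c* line 3, where 1477 of 11617 genes had one. Over all genes, 15 had an adjusted p under 0.05, and 0 to 20 in the alternatives. The number was 0 in 5 of the 6 fits without a line, where 563 to 1477 genes had an unadjusted p under 0.05. It was 8 without sg*Kmt2c* line 1. *Fgfr3* kept its negative sign throughout (-2.76 to -1.45, adjusted p 0.225 to 0.922, limma) and *Fgf1* stayed positive (0.01 to 4.06). The number of members that did not overlap was 3 of 10, beside 13.2% of genes with a read in any library. It was 4 without sg*Kmt2c* line 1 or line 2, where fewer lines separate more readily. The share over all genes without a line is not given here. Leaving out each line in turn moved *Fgfr1* between -1.32 and 0.52, *Fgfr2* between -0.15 and 2.43, *Fgf7* between -0.29 and 1.15 and *Spry2* between -0.092 and 0.97. Their signs turned for *Fgfr1* and *Spry2* without sg*Kmt2c* line 1 (0.52 and -0.092), for *Fgfr2* without sg*Trp53* line 1 (-0.019) or sg*Kmt2c* line 3 (-0.15), and for *Fgf7* without sg*Trp53* line 1 (-0.24) or sg*Kmt2c* line 2 (-0.29). *Fgfr2* also turned with sg*Kmt2c* lines 2 and 3 as 1 sample (-0.00180). With the exon union as length, chosen after seeing the data, the *Fgfr3* share difference moved from -5.80 to -20.1 percentage points that of *Fgfr4* from -1.26 to -7.48, that of *Fgfr1* from -8.59 to -1.74 and that of *Fgfr2* from 15.65 to 29.3, since the listed *Fgfr1* length is short. The pathway lists without sg*Kmt2c* line 1 were also added after seeing the data. The cause of the other shifts was not tested.

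Deviations of same-numbered lines correlated at 0.192, 0.399 and 0.0316. Lines 1 and 2 of each genotype correlated best with their own number. Line 3 of sg*Trp53* did not (0.152 with sg*Kmt2c* line 1). With so few lines, these values cannot tell whether the numbers pair the lines. With the replicate block, 0 members and 0 genes overall passed (1085 at an unadjusted p under 0.05, limma), and *Fgfr3* had -1.91 with an adjusted p of 0.225. Depth limits *Fgfr4*, *Fgf2*, *Fgf18* and *Fgf21*, which rest on 0 to 25 reads a library.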
